A study of Mus musculus and Homo sapiens with 47 samples.

Results

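Fatty acid synthesis and desaturation were followed in SUDHL10, a human B cell lymphoma line, through 10 genes chosen by name: ACLY, ACSS2, ACACA, FASN, ELOVL6, SCD, SCD5, FADS1, FADS2 and SREBF1. All 10 were found by symbol among the 25369 genes of the count table, and all 10 passed the filter on low counts that left 15278 genes tested. The study joined RNA, chromatin and single-cell libraries of mouse intestinal epithelium with libraries of this lymphoma line, and the RNA libraries of the line are used here. Cells were given UNC1999 at 5 uM and collected on days 1, 3, 5 and 6 (2 libraries a day), or MAK683 at 5 uM and collected on days 1, 3 and 5 (1 library a day). The cells they are set against were untreated and collected on day 5 (2 libraries), and the labels name no vehicle. UNC1999 inhibits EZH2 and EZH1, the methyltransferases of Polycomb repressive complex 2 (PRC2), and MAK683 binds EED, another subunit of that complex. A single cell line was used, and although the libraries are labelled biological replicates, separate cultures are not named. The p-values below thus reflect only how these libraries scatter, and that scatter may be technical.

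Cells build fatty acids from acetyl-CoA, which ACLY makes from citrate and ACSS2 from acetate. ACACA carboxylates acetyl-CoA to malonyl-CoA, FASN joins these units into palmitate, ELOVL6 lengthens palmitate, and the desaturases SCD, SCD5, FADS1 and FADS2 put in double bonds. SREBF1 encodes SREBP1, a membrane-bound transcription factor that is released when sterols or unsaturated fatty acids run low and then switches on most of these enzymes. Many tumour cells make fatty acids by this route for the lipids of their membranes.

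The libraries held 26234896 to 39315662 counted reads, and levels are given below as CPM, read counts scaled to each library's TMM-adjusted total, which compare libraries for 1 gene but not genes with each other. All 8 B cell markers examined were above 1 CPM in every library, and their summed level was 2800 to 3520 CPM in the libraries of days 1 and 3 and 4540 to 5500 CPM in those of days 5 and 6, treated or untreated. MS4A1, the gene of the B cell antigen CD20, showed the same split, at 222 to 360 CPM in the 6 libraries of days 1 and 3 and 933 to 1050 CPM in the other 7. Because untreated cells were taken on day 5 only, treatment and day of collection cannot be told apart in the comparisons of days 1 and 3 with untreated cells. For the same reason, time under UNC1999 and day of collection cannot be told apart where UNC1999 days are compared with each other. Markers of T cells, myeloid cells, and epithelium and fibroblasts summed to at most 11.3, 6.84 and 5.02 CPM in any library, and in each of these lists 0 of 6 markers were above 1 CPM in every library. The T cell sum was highest on UNC1999 day 6 (10.7 and 11.3 CPM, against 1.62 and 2.42 CPM in untreated cells), and its part in the results was not tested. The MAK683 day 5 library stood apart from the other treated libraries: across 15278 genes its log2 CPM correlated at 0.960 to 0.963 with the untreated libraries, against 0.926 to 0.930 with UNC1999 day 5 and 0.927 to 0.939 with MAK683 days 1 and 3. Averages over the MAK683 days are therefore given with and without it, while values for day 5 itself rest on it.

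Under UNC1999, most lipogenic enzymes were more abundant than in untreated cells, while SREBF1 was less abundant. On days 5 and 6 averaged (4 libraries against 2), 8 of the 10 genes were called higher (ACLY, ACSS2, ACACA, FASN, ELOVL6, SCD, SCD5 and FADS1), SREBF1 was called lower, and FADS2 was not called. A gene was called at an adjusted p under 0.05 in edgeR's quasi-likelihood test, with Benjamini-Hochberg adjustment over all 15278 genes. Much of the transcriptome differed between these libraries: in this comparison 63.2% of all tested genes were called, 32.8% higher and 30.4% lower. The median log2 fold change was 0.42 over the 10 genes and 0.02 over all tested genes. Since the genes were chosen with earlier results of these data known, such counts and medians describe the set and do not test it. In bulk RNA a lower level in every cell and fewer cells that use the gene cannot be told apart.

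**Figure D1:**
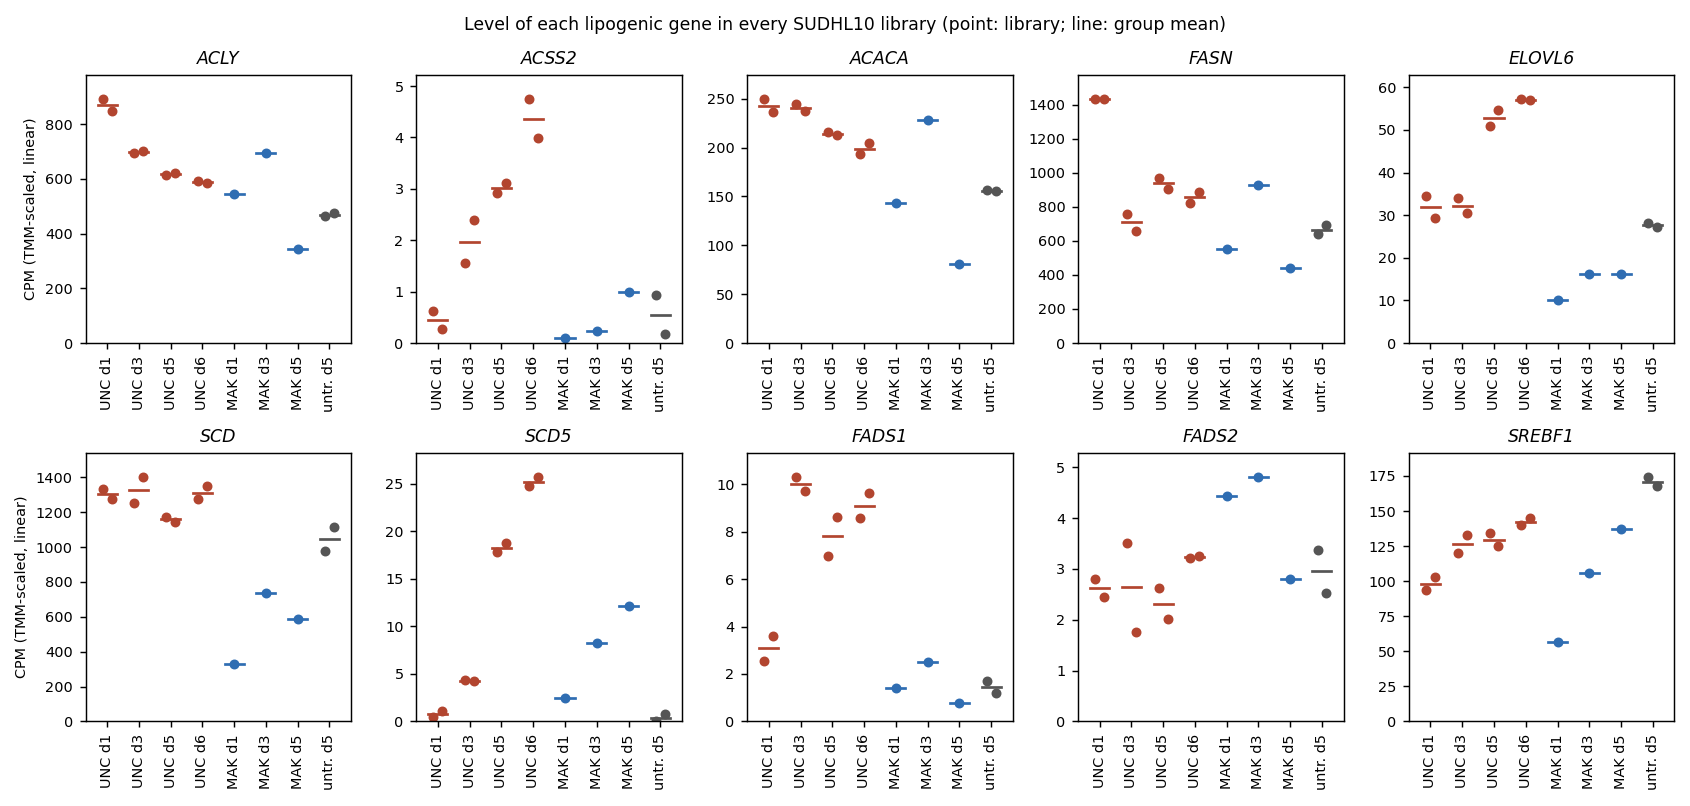
Level of each gene (CPM, linear axis from 0) in every library, grouped as UNC1999 days 1, 3, 5 and 6 (red), MAK683 days 1, 3 and 5 (blue) and untreated day 5 (grey). Points are libraries and short lines are group means. FASN peaks on UNC1999 day 1 at 1431 and 1433 CPM. SCD5 has its lowest group mean in untreated cells, whose libraries overlap those of UNC1999 day 1, and reaches 24.7 and 25.7 CPM on UNC1999 day 6.

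The 2 suppliers of acetyl-CoA differed in timing. ACLY had 892 and 848 CPM on UNC1999 day 1, 693 and 701 CPM on day 3, 612 and 620.1 CPM on day 5, and 591 and 583 CPM on day 6. In MAK683 cells it had 546 CPM on day 1, 693 CPM on day 3 and 343 CPM on day 5, against 464 and 474 CPM in untreated cells. Every UNC1999 library thus lay above both untreated libraries, with the highest values on day 1. The log2 fold change of UNC1999 against untreated cells was 0.89 ± 0.07 (SE) on day 1 (edgeR adjusted p = 7.68e-11) and 0.36 ± 0.06 on days 5 and 6 (adjusted p = 1.37e-05). ACSS2 was a low-count gene in this line: it had 0.617 and 0.275 CPM on UNC1999 day 1, 1.55 and 2.39 CPM on day 3, 2.93 and 3.11 CPM on day 5, and 4.75 and 3.98 CPM on day 6. In MAK683 cells ACSS2 had 0.102, 0.236 and 1.00 CPM on days 1, 3 and 5, from 3, 8 and 29 reads, and untreated cells had 0.928 and 0.177 CPM, from 33 and 6 reads. The day 1 libraries of UNC1999 overlapped the untreated pair, and those of days 3, 5 and 6 lay above it. On days 5 and 6 ACSS2 was 6.49-fold higher than in untreated cells (log2 2.70 ± 0.51, adjusted p = 6.68e-05). Since the untreated libraries differ this much, the log2 value for ACSS2 on those days was 4.31 without the first and 1.96 without the second untreated library, and the call on day 3 (log2 1.82) was lost without the second (log2 1.09) or without replicate 2 of UNC1999 day 3 (log2 1.47).

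ACACA, the carboxylase that commits acetyl-CoA to fatty acid synthesis, had 249.7 and 236 CPM on UNC1999 day 1, 245 and 237 CPM on day 3, 215 and 213 CPM on day 5, and 193 and 204 CPM on day 6. In MAK683 cells it had 143, 228 and 81.4 CPM on days 1, 3 and 5, against 156 CPM in both untreated libraries. All 8 UNC1999 libraries were above the untreated pair, and MAK683 day 5 was the lowest library of all 13. The log2 fold change of UNC1999 was 0.64 ± 0.07 on day 1 (adjusted p = 6.7e-08) and 0.40 ± 0.06 on days 5 and 6 (adjusted p = 7.15e-06).

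FASN, the multi-enzyme chain that makes palmitate, had 1431 and 1433 CPM on UNC1999 day 1, 759 and 657 CPM on day 3, 970.1 and 906 CPM on day 5, and 821 and 888 CPM on day 6. MAK683 cells had 553, 927 and 443 CPM on days 1, 3 and 5, and untreated cells had 639 and 691 CPM. FASN was therefore highest on UNC1999 day 1, where it was 2.15-fold above untreated cells (log2 1.11 ± 0.08, adjusted p = 1.79e-11). On day 3 the UNC1999 and untreated ranges overlapped and the log2 fold change was 0.09, with a 95% interval of -0.07 to 0.25 (adjusted p = 0.332). On days 5 and 6 FASN was again above untreated cells, by log2 0.43 ± 0.07 (adjusted p = 7.17e-06).

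ELOVL6, which lengthens palmitate to stearate, followed a later course. It had 34.4 and 29.5 CPM on UNC1999 day 1, 34.0 and 30.4 CPM on day 3, 50.9 and 54.6 CPM on day 5, and 57.3 and 57.0 CPM on day 6. MAK683 cells had 10.00, 16.3 and 16.1 CPM on days 1, 3 and 5, against 28.2 and 27.3 CPM in untreated cells. The 3 compound-by-time blocks did not overlap: UNC1999 days 5 and 6 were highest, MAK683 lowest, and untreated cells lay between them. ELOVL6 was 1.98-fold higher on UNC1999 days 5 and 6 than in untreated cells (log2 0.99 ± 0.10, adjusted p = 3.25e-09), while on days 1 and 3 its log2 fold changes of 0.21 and 0.22 did not pass the test (adjusted p = 0.118 and 0.0954).

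Among the desaturases, SCD and SCD5 both make monounsaturated fatty acids, with oleate from stearate as the best known product. SCD had 1335 and 1278 CPM on UNC1999 day 1, 1255 and 1401 CPM on day 3, 1174 and 1144 CPM on day 5, and 1274 and 1352 CPM on day 6. MAK683 cells had 328, 736 and 589 CPM on days 1, 3 and 5, and untreated cells had 979 and 1113 CPM. The UNC1999 libraries lay just above the untreated pair and the MAK683 libraries well below it. On UNC1999 days 5 and 6 averaged the SCD difference was small (log2 0.24 ± 0.07, edgeR adjusted p = 0.00345). It did not pass the test without the first untreated library (log2 0.13), nor then did that of day 1 (log2 0.17, against 0.32 with it). On day 5 alone, the day of the untreated cells, SCD was not called (log2 0.15, adjusted p = 0.101). That day passed with library size only (log2 0.16) or without the second untreated library (log2 0.24). Day 6 alone, which has no untreated library of its own day, was called higher (log2 0.33, adjusted p = 0.000753).

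SCD5 showed the widest span of the 10 genes, log2 6.55 between its lowest and highest group mean of log2 CPM. It had 15 and 33 reads on UNC1999 day 1 (0.463 and 1.13 CPM), 138 and 155 reads on day 3 (4.37 and 4.21 CPM), 687 and 754 reads on day 5 (17.8 and 18.7 CPM), and 854 and 677 reads on day 6 (24.7 and 25.7 CPM). In MAK683 cells it had 72, 280 and 350 reads on days 1, 3 and 5 (2.44, 8.26 and 12.1 CPM), against 1 and 26 reads in untreated cells (0.0281 and 0.766 CPM). SCD5 was thus higher on each later day under either compound, and from day 3 on every treated library was above the untreated pair. Against untreated cells the log2 fold change was 5.77 ± 0.39 on UNC1999 days 5 and 6 (adjusted p = 3.53e-12), and 2.63 ± 0.54, 4.39 ± 0.45 and 4.94 ± 0.44 on MAK683 days 1, 3 and 5 (adjusted p = 0.000214, 1.6e-08 and 6.79e-09). Sizes rest on the untreated reads: without the first untreated library these log2 values were 4.78 for UNC1999 and 1.58, 3.38 and 3.91 for MAK683, and without the second they were 9.39, 6.26, 8.01 and 8.57. For UNC1999 day 1 the log2 value of 1.00 was not called (adjusted p = 0.13) and ran to -0.03 without the first and 4.63 without the second untreated library.

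FADS1 and FADS2, neighbouring genes in the human genome, encode front-end desaturases of polyunsaturated fatty acids. FADS1 had 2.56 and 3.61 CPM on UNC1999 day 1, 10.3 and 9.73 CPM on day 3, 6.99 and 8.62 CPM on day 5, and 8.57 and 9.63 CPM on day 6. It had 1.39, 2.51 and 0.761 CPM on MAK683 days 1, 3 and 5, and 1.71 and 1.18 CPM in untreated cells, so UNC1999 libraries were above all untreated and MAK683 libraries. FADS1 was 5.80-fold higher on UNC1999 days 5 and 6 (log2 2.54 ± 0.25, adjusted p = 3.25e-09), and on day 1 it was higher by log2 1.08 ± 0.28 (adjusted p = 0.00187), a call lost without replicate 2 of that day (log2 0.73). FADS2 stayed between 1.77 and 4.81 CPM in all 13 libraries, and its UNC1999 and untreated ranges overlapped. FADS2 passed the test in none of the comparisons with untreated cells: on UNC1999 days 5 and 6 its log2 fold change was -0.11, with a 95% interval of -0.72 to 0.49 (adjusted p = 0.76).

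Under UNC1999 SREBF1 was the member called lower. It had 93.6 and 103 CPM on UNC1999 day 1, 120 and 133 CPM on day 3, 134 and 125 CPM on day 5, and 140 and 145 CPM on day 6. MAK683 cells had 56.3, 106 and 137 CPM on days 1, 3 and 5, against 174 and 168 CPM in untreated cells. Every treated library, with either compound, was below both untreated libraries, and the lowest value of each compound was that of day 1. SREBF1 fell by 0.80 ± 0.08 on the log2 scale on UNC1999 day 1 (adjusted p = 1.01e-08) and by 0.33 ± 0.07 on days 5 and 6 (adjusted p = 0.000212), and on day 6 alone (log2 -0.26) the call was lost without replicate 1 of that day (log2 -0.24).

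Taken day by day against untreated cells, UNC1999 had 5 of the 10 genes called higher and 1 lower on day 1, where 54.7% of all tested genes were called (28.2% higher and 26.5% lower). On day 3 the counts were 6 higher and 1 lower, against 57.1% of all tested genes (30.1% and 26.9%). On day 5 they were 7 and 1, against 58.7% (31.3% and 27.4%), and on day 6 they were 8 and 1, against 58.2% (30.9% and 27.3%). SCD was called higher on day 6 and was not called on day 5. These comparisons all share the untreated libraries. The comparison of UNC1999 days 5 and 6 with UNC1999 day 1 does not use them, but time under UNC1999 and day of collection cannot be told apart in it. There, 5 of the 10 genes were higher and 3 lower on the later days, where 49.3% of all tested genes were called (22.2% higher and 27.1% lower). The 3 that fell, ACLY, ACACA and FASN, are the central steps from citrate to palmitate. FASN fell by 0.68 ± 0.07 (adjusted p = 7.17e-09), ACLY by 0.53 ± 0.06 (adjusted p = 4.76e-08) and ACACA by 0.24 ± 0.06 on the log2 scale (adjusted p = 0.00316). The call on ACACA was lost without either day 1 library (log2 -0.19 and -0.20) or with no filter (log2 -0.16). The 5 that rose were SCD5, by log2 4.77 ± 0.35, ACSS2, by 3.00 ± 0.53, FADS1, by 1.45 ± 0.23, ELOVL6, by 0.78 ± 0.10, and SREBF1, by 0.47 ± 0.07 (adjusted p = 5.91e-11, 5.18e-05, 1.03e-05, 3.09e-07 and 8.12e-06). Without replicate 2 of day 1 SCD5 was at log2 5.60, and without replicate 1 ACSS2 was at log2 3.70. SCD did not pass, at log2 -0.08 with a 95% interval of -0.22 to 0.05.

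FASN was already lower by day 3. Between UNC1999 day 3 and day 1, 4 of the 10 genes were higher (SCD5, FADS1, ACSS2 and SREBF1) and 2 lower (FASN and ACLY), where 35.4% of all tested genes were called (17.2% higher and 18.2% lower). FASN fell by 1.02 ± 0.08 on the log2 scale (adjusted p = 5.65e-10) and ACLY by 0.32 ± 0.07 (adjusted p = 0.000726). FADS1 rose by 1.70 ± 0.25 over the same interval (adjusted p = 1.08e-05) and had 6.99 to 9.63 CPM on days 5 and 6, below the 10.3 and 9.73 CPM of day 3, a step that was not tested. The rise of ACSS2 (log2 2.13) was not called without replicate 2 of day 1 (log2 1.77) or of day 3 (log2 1.78), and was log2 2.83 without replicate 1 of day 1. That of SCD5 (log2 2.44) was log2 3.29 without replicate 2 of day 1.

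**Figure D2:**
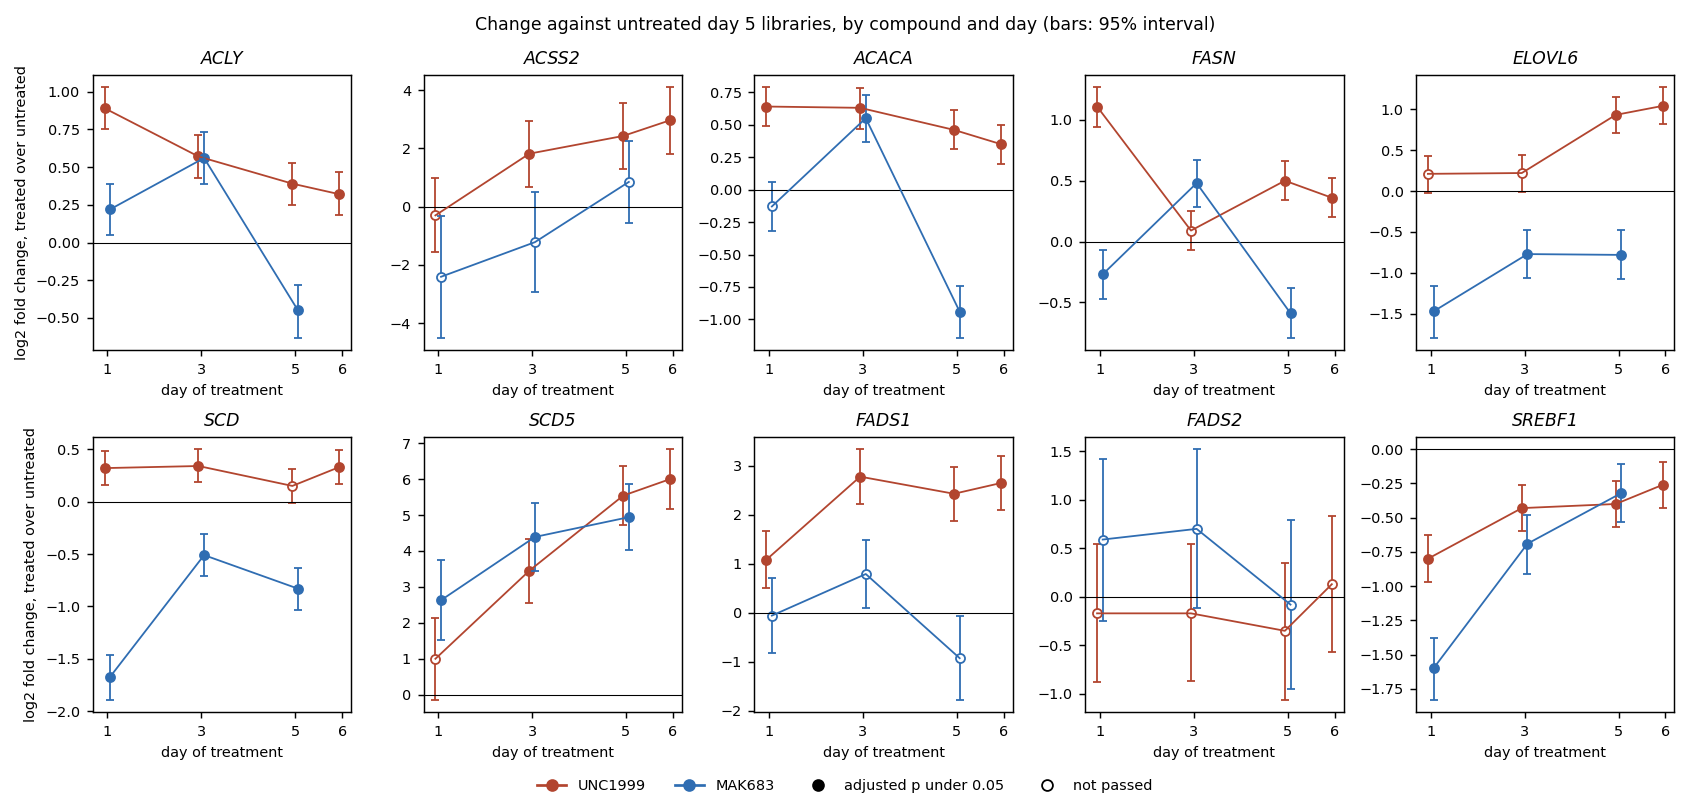
Log2 fold change of treated over untreated cells by day of treatment, for UNC1999 (red, 2 libraries a day) and MAK683 (blue, 1 library a day), each gene on its own axis. Bars are 95% intervals from edgeR, filled points passed an adjusted p of 0.05, and open points did not. SCD and ELOVL6 lie above 0 under UNC1999 and below 0 under MAK683 on every day, while SCD5 climbs and SREBF1 lies below 0 with both compounds.

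MAK683 gave a different picture. Averaged over days 1, 3 and 5 (3 libraries against 2), SCD5 was the 1 member called higher and 4 were called lower, ACACA, ELOVL6, SCD and SREBF1, where 46.7% of all tested genes were called (23.9% higher and 22.8% lower). SCD fell by 1.00 ± 0.07 on the log2 scale (adjusted p = 3.22e-11), ELOVL6 by 1.01 ± 0.10 (adjusted p = 1.96e-08) and SREBF1 by 0.87 ± 0.07 (adjusted p = 9.38e-10), and all 3 were below untreated cells in each of the 3 libraries. Without the day 5 library, SCD, ELOVL6 and SREBF1 fell by 1.09, 1.12 and 1.15. The ACACA call (log2 -0.17) turned round without that library (log2 0.21). It was lost without the second untreated library (log2 -0.18) or any 1 of the 4 libraries of UNC1999 days 5 and 6 (log2 -0.17). A fit of the compared groups alone lost it too (log2 -0.17). Without MAK683 day 5 ACLY was called higher (log2 0.39, against 0.11 with it) and ACSS2 lower (log2 -1.82, against -0.93). FASN, at log2 -0.12 with a 95% interval of -0.27 to 0.02, also changed sign without it (log2 0.11) and was called in neither fit, but passed the test, lower, without the first untreated library (log2 -0.24) and with DESeq2, DESeq2 size factors, library size only or no filter (log2 -0.19, -0.19, -0.15 and -0.18). Each day of MAK683 is 1 library, assumed to vary like the other groups.

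The 3 MAK683 days were each set against untreated cells, and differences between the days were not tested. On day 1, 2 members were higher and 4 lower than in untreated cells, where 48.6% of all tested genes were called (26.2% higher and 22.4% lower). SCD fell by 1.67 ± 0.10 on the log2 scale (adjusted p = 2.41e-12), SREBF1 by 1.60 ± 0.11 (adjusted p = 1.47e-11), ELOVL6 by 1.47 ± 0.15 (adjusted p = 1.56e-08) and FASN by 0.27 ± 0.10 (adjusted p = 0.0259), while SCD5 and ACLY were higher. The FASN call was lost without the second untreated library (log2 -0.21) and in a fit of the compared groups alone (log2 -0.28). The ACLY call (log2 0.22) was lost without the first untreated library (log2 0.12), replicate 2 of UNC1999 day 1 (log2 0.11) or either library of UNC1999 day 6 (log2 0.22). It was also lost with DESeq2, DESeq2 size factors, no filter or the compared groups alone (log2 0.13, 0.13, 0.12 and 0.21). On day 3, FASN, ACACA, ACLY and SCD5 were higher, by log2 0.48 ± 0.09, 0.55 ± 0.09, 0.56 ± 0.08 and 4.39 ± 0.45, and SCD, ELOVL6 and SREBF1 lower, by -0.51, -0.77 and -0.69, where 48.4% of all tested genes were called (26.2% higher and 22.2% lower). On day 5, SCD5 was the member called higher and 6 were lower, where 29.6% of all tested genes were called (15.5% higher and 14.1% lower). ACACA fell by 0.94 ± 0.10, SCD by 0.83 ± 0.10, ELOVL6 by 0.78 ± 0.14, FASN by 0.59 ± 0.10, ACLY by 0.45 ± 0.09 and SREBF1 by 0.32 ± 0.10 on the log2 scale, with adjusted p-values of 4.92e-08 to 0.018. FADS1, FADS2 and ACSS2 passed the test on none of the 3 days, though leaving out 1 untreated library brought ACSS2 past it on each day (log2 -3.14 on day 1, -1.96 on day 3 and 2.41 on day 5) and FADS1 on day 3 (log2 1.04). ACSS2 on day 1 also passed with DESeq2, DESeq2 size factors or no filter (log2 -2.54, -2.50 and -2.50). It passed as well without either UNC1999 day 1 library (log2 -2.41 and -2.51), and FADS1 on day 3 without replicate 1 of that UNC1999 day (log2 0.79).

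Set against each other at the same dose and on the same day, the 2 inhibitors differed on all 3 days in SCD and ELOVL6. The molecules are not close structural relatives, and the comparison is of 10 genes on 3 days, with p-values adjusted over all tested genes within each day. Averaged over days 1, 3 and 5 (6 libraries against 3), 8 members were higher under UNC1999 than under MAK683 and 2 lower, where 38.2% of all tested genes were called (19.7% higher and 18.5% lower), and the median log2 difference was 0.72 over the 10 genes and 0.04 over all tested genes. ELOVL6 was 2.74-fold higher under UNC1999 (log2 1.46 ± 0.08, adjusted p = 3.89e-12) and SCD 2.42-fold higher (log2 1.27 ± 0.06, adjusted p = 3.3e-14), and for both genes the libraries of the compounds did not overlap. FADS1 was 4.48-fold higher, also without overlap (log2 2.16 ± 0.21, adjusted p = 1.75e-08), ACSS2 4.75-fold (log2 2.25 ± 0.49, adjusted p = 0.000679), ACACA 1.68-fold (log2 0.75), FASN 1.61-fold (log2 0.69), ACLY 1.42-fold (log2 0.51) and SREBF1 1.26-fold (log2 0.33). The lower pair were SCD5 (log2 -0.66 ± 0.23, adjusted p = 0.0265) and FADS2 (log2 -0.63 ± 0.24, adjusted p = 0.0363). For this pair, as for ACSS2, ACACA, FASN, ACLY and SREBF1, the libraries of the compounds overlapped. The SCD5 average joins differences of log2 -1.63, -0.94 and 0.59 on days 1, 3 and 5. Without MAK683 day 5 the mean of days 1 and 3 kept the sign and call of all 10, with SCD at 1.42, ELOVL6 at 1.33, FADS1 at 1.57 and SCD5 at -1.29. The SCD5 call was lost without replicate 1 of UNC1999 day 1 (log2 -0.48), and with DESeq2 or library size only (log2 -0.62 and -0.64). That of FADS2 was lost without replicate 2 of UNC1999 day 1, 3 or 5 (log2 -0.58, -0.49 and -0.58). It was also lost with DESeq2, library size only or the compared groups alone (log2 -0.60, -0.61 and -0.60).

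**Figure D3:**
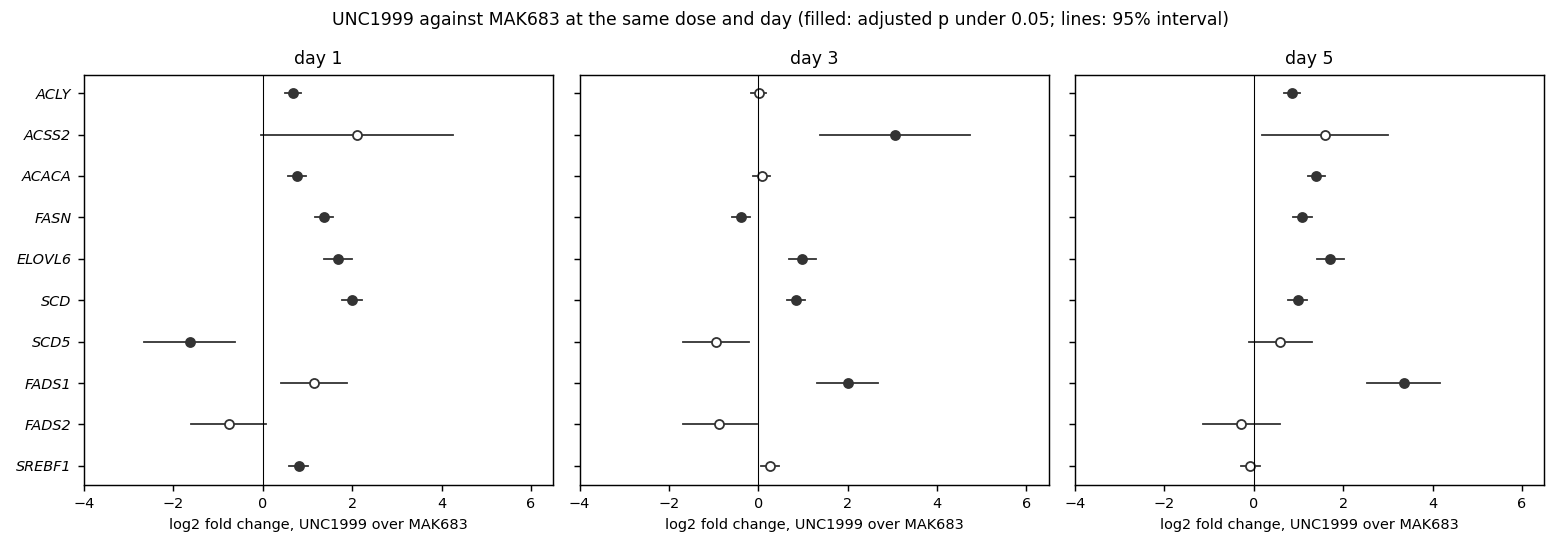
Log2 fold change of UNC1999 (2 libraries) over MAK683 (1 library) for each gene on days 1, 3 and 5, both at 5 uM. Points are edgeR estimates, lines are 95% intervals, and filled points passed an adjusted p of 0.05. SCD and ELOVL6 lie right of 0 on all 3 days, and FASN lies right of 0 on days 1 and 5 and left of it on day 3.

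The difference between the inhibitors was not the same on each day. On day 1, 6 members were higher under UNC1999 and SCD5 was lower, where 8.05% of all tested genes were called (4.4% higher and 3.65% lower). SCD was 3.98-fold higher (log2 1.99 ± 0.10, adjusted p = 2.74e-12), ELOVL6 3.20-fold (log2 1.68 ± 0.15, adjusted p = 2.63e-08), FASN 2.59-fold (log2 1.37 ± 0.10, adjusted p = 7.25e-10), SREBF1 1.74-fold, ACACA 1.70-fold and ACLY 1.59-fold. SCD5 was lower by log2 -1.63 ± 0.49 (adjusted p = 0.0401), a call lost without UNC1999 day 1 replicate 1 (log2 -1.10), day 5 replicate 1 or either day 6 library (log2 -1.63 in these 3). The SCD5 call was also lost with DESeq2 or library size only (log2 -1.59 and -1.63). Without day 1 replicate 2 the SCD5 value was log2 -2.37. FADS1 was not called on day 1 (log2 1.14), but was with DESeq2 size factors or no filter (log2 1.16 in both). On day 3, 4 members were higher (SCD, ELOVL6, FADS1 and ACSS2) and 1 was lower, where 22.6% of all tested genes were called (10.8% higher and 11.8% lower). FASN was that member, at log2 -0.39 ± 0.09 (adjusted p = 0.00419). ACLY and ACACA did not differ beyond the test on day 3, with 95% intervals of -0.17 to 0.18 and -0.11 to 0.26 around 0.01 and 0.08. SREBF1 and SCD5 were not called on day 3 either (log2 0.26 and -0.94), but both were with no filter (log2 0.30 and -0.91). On day 5, 6 members were higher and 0 lower, where 52.1% of all tested genes were called (26.4% higher and 25.7% lower). FADS1 was 10.2-fold higher (log2 3.35 ± 0.40, adjusted p = 1.13e-07), ELOVL6 3.27-fold, ACACA 2.63-fold, FASN 2.12-fold, SCD 1.97-fold and ACLY 1.80-fold. SREBF1 did not pass on day 5, with a 95% interval of -0.28 to 0.13 around -0.08. ACSS2 (log2 1.59) did not pass either, but did with DESeq2 size factors or no filter (log2 1.63 and 1.60). All day 5 values rest on the MAK683 library that lay nearer to untreated cells.

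A test of the change in that difference between days was added after the data were seen. From day 1 to day 3 the difference of UNC1999 over MAK683 became smaller or turned negative in 6 members (FASN, SCD, ACACA, ACLY, ELOVL6 and SREBF1) and larger in 0, where 9.82% of all tested genes were called (4.57% upward and 5.26% downward). From day 3 to day 5 it moved upward in 6 members (FASN, ACACA, ACLY, ELOVL6, FADS1 and SCD5) and downward in 0, where 41.9% of all tested genes were called (21.7% upward and 20.2% downward). FASN moved most from day 1 to day 3, by log2 -1.76 ± 0.14 (edgeR adjusted p = 2.83e-08), and back by 1.47 ± 0.14 from day 3 to day 5 (adjusted p = 5.15e-09).

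The order of the 8 groups also differed between genes. For FASN the order ran from UNC1999 day 1 through UNC1999 day 5, MAK683 day 3, UNC1999 day 6, UNC1999 day 3, untreated and MAK683 day 1 to MAK683 day 5. Replicate libraries of FASN differed by up to log2 0.21, so UNC1999 day 5, MAK683 day 3 and UNC1999 day 6 were not separated in that order, nor were UNC1999 day 3 and untreated. For SCD the 4 UNC1999 groups came first and each was within log2 0.19, its largest replicate gap, of the next, including the step to untreated cells. The 3 MAK683 groups followed, each separated from its neighbour by log2 0.32 to 0.84. For FADS2, whose replicates differed by up to log2 0.97, no neighbours in the order were separated.

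Across the 13 libraries, ACACA and ACLY moved most closely together (Pearson r of log2 CPM 0.92), followed by FASN with ACLY and SCD with ELOVL6 (0.85 each). SCD and FADS2 had the lowest r (-0.57), and SREBF1 had an r of -0.37 with ACLY (Spearman rho -0.65) and 0.60 with SCD (rho 0.02). These describe 13 libraries that share compounds, days and scaling. The genes most like FASN were PCYT2, a phosphatidylethanolamine synthesis enzyme (r 0.916), the cholesterol enzymes LSS (0.871), TM7SF2 (0.871) and DHCR7 (0.851), and LPCAT1, a lysophosphatidylcholine acyltransferase (0.864). Those most like SCD were CD180, a Toll-like receptor homologue of B cells (0.948), C6orf223 (0.931), SPTLC2, a subunit of serine palmitoyltransferase (0.920), and the cholesterol enzymes SQLE (0.904) and MVK (0.891).

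Other parts of lipid metabolism were read from lists of named genes. Of 19 tested genes among other fatty acid synthesis enzymes, 9 were higher and 6 lower on UNC1999 days 5 and 6 than in untreated cells, where 32.8% and 30.4% of all tested genes were, and the list median was log2 0.46. ELOVL2, an elongase of polyunsaturated fatty acids, had 13.9 to 19.7 CPM on those days, against 0.0295 and 0.534 CPM in untreated cells (log2 5.84 ± 0.40, adjusted p = 5.81e-12). The untreated level of ELOVL2 rests on 19 and 1 reads, and the log2 value was 8.96 without the first and 4.95 without the second untreated library. ACACB, the carboxylase of the mitochondrial surface, averaged 9.13 ± 1.60 CPM on day 5 and 11.9 ± 0.922 CPM on day 6, against 0.453 ± 0.433 CPM in untreated cells (SD, n = 2 each, log2 4.49 ± 0.40, adjusted p = 5.73e-10). ACACB had 27 and 5 untreated reads, and its log2 value was 6.09 without the first and 3.77 without the second untreated library. The elongase ELOVL5 fell by 0.75 ± 0.07 on the log2 scale (adjusted p = 4.37e-10). Of 21 glycerolipid assembly and storage genes, 10 were higher and 5 lower (list median 0.54), against the same 32.8% and 30.4% of all tested genes. DGAT2, which completes triglyceride synthesis, rose 4.48-fold and the phosphatidate phosphatase LPIN2 11.9-fold, while its paralogue LPIN1 fell by 1.53 ± 0.07 on the log2 scale (adjusted p = 1.05e-11, 2.12e-13 and 1.27e-15). Under MAK683, averaged over its days, the counts were 7 higher and 6 lower of the 19 synthesis enzymes and 7 higher and 5 lower of the 21 glycerolipid genes, where 23.9% of all tested genes were higher and 22.8% lower. Without MAK683 day 5 they were 8 and 6, and 7 and 5, where 28.2% of all tested genes were higher and 26.9% lower.

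Regulators of lipogenesis and genes of fatty acid oxidation were read in the same way. Of 19 tested regulators of lipogenesis, 3 were higher and 9 lower on UNC1999 days 5 and 6 (list median log2 -0.29), against 32.8% and 30.4% of all tested genes. Under MAK683 3 were higher and 6 lower, against 23.9% and 22.8% of all tested genes, and 5 and 9 without its day 5 library, against 28.2% and 26.9%. SREBF2, which encodes the SREBP that mainly drives cholesterol genes, had 609.9 to 680.1 CPM on UNC1999 days 5 and 6, against 1032 and 1115 CPM in untreated cells (log2 -0.72 ± 0.06, adjusted p = 5.04e-10). It had 379 and 485 CPM on MAK683 days 1 and 3 and 962 CPM on day 5, so the day 5 library was close to the untreated pair. TMEM97, an endoplasmic reticulum sterol-binding protein, rose 2.14-fold under UNC1999, and RXRA, a nuclear receptor partner, rose 20.5-fold (adjusted p = 5.61e-12 and 4.15e-10), the second with 2.69 to 4.38 CPM against 0.141 and 0.177 CPM, which rest on 5 and 6 reads. On MAK683 days 1, 3 and 5 TMEM97 was at log2 0.19, 0.54 and -0.22 and RXRA at 3.63, 3.61 and 1.48 against untreated cells. Of 24 tested genes of mitochondrial fatty acid oxidation, 5 were higher and 15 lower on UNC1999 days 5 and 6 (list median -0.31), against 32.8% and 30.4% of all tested genes. Under MAK683 3 were higher and 7 lower, against 23.9% and 22.8% of all tested genes, and of the 23 tested without its day 5 library 7 were higher and 7 lower, against 28.2% and 26.9%. PPARA, a nuclear receptor that switches on oxidation genes in liver, fell by 1.34 ± 0.08 on the log2 scale, while ACAD9 rose 3.03-fold and ECI2 7.54-fold (adjusted p = 3.1e-13, 1.28e-13 and 5.53e-12). PPARA too was near its untreated level on MAK683 day 5, at 95.3 CPM against 102 and 105 CPM in untreated cells, with 37.7 and 44.5 CPM on MAK683 days 1 and 3. Against untreated cells ACAD9 was at log2 1.56, 1.56 and -0.73 and ECI2 at -0.72, 0.65 and 1.51 on MAK683 days 1, 3 and 5.

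Cholesterol synthesis and uptake genes, the other main targets of SREBP factors, differed between the inhibitors in nearly every tested member. Of 22 tested genes, 22 were higher under UNC1999 than under MAK683 over the mean of days 1, 3 and 5, where 19.7% of all tested genes were, and the list median was log2 0.98. Without MAK683 day 5, over days 1 and 3, 21 of 22 were higher, where 9.19% of all tested genes were. On day 1 alone 21 of 22 were higher, where 4.4% of all tested genes were, and on day 3 all 22, where 10.8% were. On day 5 there were 17 higher and 1 lower, where 26.4% and 25.7% of all tested genes were. Against untreated cells 18 were higher and 1 lower on UNC1999 day 1, where 28.2% and 26.5% of all tested genes were, and 13 and 6 on days 5 and 6, where 32.8% and 30.4% were. Under MAK683 1 was higher and 19 lower, where 23.9% and 22.8% of all tested genes were, and 4 and 17 without its day 5 library, where 28.2% and 26.9% were. ACAT2 and PMVK rose 2.16-fold and 1.96-fold on UNC1999 days 5 and 6 (adjusted p = 9.5e-13 and 7e-11). Of the 6 PRC2 subunit genes, RBBP7 was higher and EZH1 and RBBP4 were among the 3 lower in that comparison. EZH1 fell by 1.02 ± 0.10 on the log2 scale (adjusted p = 2.84e-09), and its level on MAK683 day 5, 102 CPM, was above the 77.0 and 97.7 CPM of untreated cells.

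**Figure D4:**
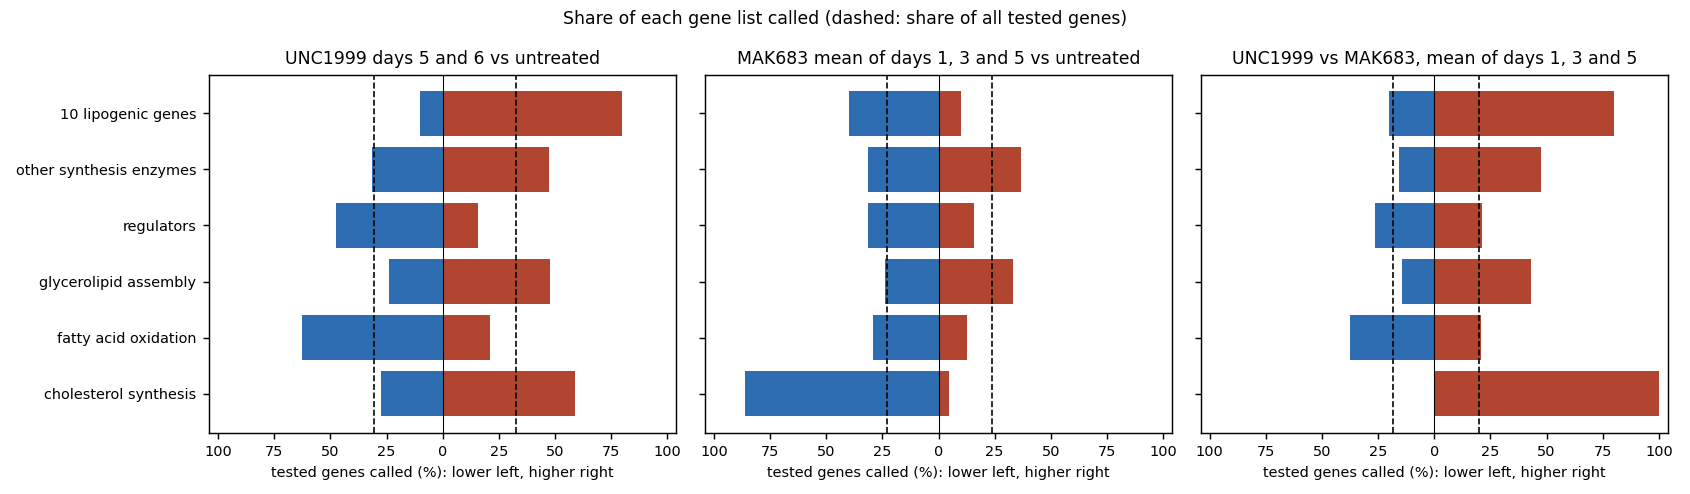
Share of the tested genes of each list called higher (red, right of 0) or lower (blue, left of 0), in percent, for UNC1999 days 5 and 6 against untreated, the MAK683 mean against untreated, and UNC1999 against MAK683. Dashed lines give the share of all 15278 tested genes. The 10 lipogenic genes and the cholesterol list reach furthest right in the comparison of UNC1999 with MAK683, with 8 of 10 and 22 of 22 called higher.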

How the data were processed

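RNA of SUDHL10 cells was read as single-end libraries made with a TruSeq RNA V2 kit, which does not mark strand, per the labels' protocols, so reads of overlapping opposite-strand genes cannot be told apart. The deposited table holds raw read counts per gene symbol, made by the authors. STAR 2.5.3a is named in the submitters' processing notes without a role, and neither the counting tool nor the annotation and human genome build is given in the sources used here. How any reads shared by related genes (SCD and SCD5, ACACA and ACACB, FADS1 and FADS2, and pseudogenes) were counted is therefore unknown. Of 13 libraries, the 2 untreated columns carry 1 shared name and are called first and second by column.

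All libraries entered 1 fit with a mean per compound and day in edgeR 4.0.16 (R 4.3.3): low-count filter at edgeR's defaults, TMM scaling, quasi-likelihood F test, 5 residual degrees of freedom, prior 18.6. Standard errors are the log2 fold change over the square root of F. The alternatives were other scalings, no filter, DESeq2 1.42.0, fits of the compared groups alone, a replicate block, and leaving out each UNC1999 or untreated library. The scripts were tested on simulated data. Replicates differed by more than counting noise in each of the 5 groups with 2 libraries. The members and lists were chosen with earlier results of these data known. From each other list, the text names the 3 genes with the smallest adjusted p on UNC1999 days 5 and 6 against untreated, and for FASN and SCD the 5 genes with the highest Pearson r and a mean log2 CPM of at least 3. One gene that this rule names is not reported here.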

Additional observations from a re-analysis of the deposited data

Results flagged for a closer look

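The difference between UNC1999 and MAK683 at matched days changed with the day in several genes, by an interaction test in the same edgeR fit that was added after the data were seen. Each MAK683 day is 1 library. Across all tested genes 9.82% passed this test between days 1 and 3 and 41.9% between days 3 and 5.

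From day 1 to day 3 the log2 difference of UNC1999 over MAK683 fell by 1.76 in FASN (adjusted p = 2.83e-08), by 1.14 in SCD (1.04e-05), by 0.69 in ACACA (0.00142), by 0.66 in ACLY (0.000954), by 0.69 in ELOVL6 (0.0307) and by 0.54 in SREBF1 (0.0182). The log2 values were -1.76, -1.14, -0.69, -0.66, -0.69 and -0.54. FASN crossed 0 between these days, at 1.37 on day 1 and -0.39 on day 3. SCD and ELOVL6 kept a positive difference on both days. The call on ELOVL6 was lost without replicate 1 of UNC1999 day 1 (-0.57) or replicate 2 of day 3 (-0.61). It was also lost with library size only (-0.63) or the compared groups alone (-0.66). The call on SREBF1 was lost without replicate 2 of UNC1999 day 1 (-0.45) or with the compared groups alone (-0.51).

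From day 3 to day 5 the log2 difference rose by 1.47 in FASN (adjusted p = 5.15e-09), by 1.32 in ACACA (1.21e-08), by 0.84 in ACLY (3.19e-06), by 0.72 in ELOVL6 (0.00417), by 1.36 in FADS1 (0.0326) and by 1.54 in SCD5 (0.0147). The SCD5 difference was -0.94 on day 3 and 0.59 on day 5, and neither passed the test by itself. Each did pass with no filter (-0.91 and 0.61) and with the compared groups alone (-0.92 and 0.61). The call on the SCD5 rise between these days was lost with DESeq2 (1.55). The FADS1 call was lost without replicate 2 of UNC1999 day 3 (1.31) or day 5 (1.20), and with library size only (1.31). These values rest on the MAK683 day 5 library, which correlated more closely with untreated cells than with any other treated group compared with it; its part in them was not tested.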

How the results depend on the processing

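The number of members called stayed within 1.5 times its reported value in all 231 alternative values of 15 counts. Of 2610 alternative values of member fold changes, 2466 kept direction and side of the threshold, 53 lost a call, 56 gained one and 35 changed sign. Of 118 called differences, 18 lost the call under at least 1 alternative. ACACA on UNC1999 day 3 against day 1 (-0.01) was 0.04 with DESeq2 size factors, library size only, DESeq2 and only the groups compared, and 0.08 with no filter and in fits of UNC1999 libraries alone, with the replicate block or without it. Without the MAK683 day 5 library, chosen after seeing the data, the MAK683 mean against untreated was 0.11 for FASN, 0.21 for ACACA and 0.36 for FADS1, and ACACA, called lower with it (-0.17), was then called higher. Leaving out 1 library at a time gave these ranges where a sign changed. For FADS2 they were -0.30 to 0.09 (UNC1999 days 5 and 6), -0.74 to 0.25 (day 3), -0.06 to 0.34 (day 6) and -0.27 to 0.08 (MAK683 day 5) against untreated, -0.57 to 0.42 (day 3) and -0.04 to 0.16 (days 5 and 6) against UNC1999 day 1, and -0.68 to 0.31 in the day 3 minus day 1 interaction. For ACSS2 against untreated they were -1.04 to 1.27 (UNC1999 day 1), -1.96 to 0.37 (MAK683 day 3) and -1.66 to 0.64 (MAK683 mean). For FADS1 they were -0.30 to 0.15 (MAK683 day 1) and -0.31 to 0.17 (MAK683 mean), for SCD5 -0.03 to 4.63 (UNC1999 day 1) and for FASN -0.02 to 0.19 (UNC1999 day 3). On UNC1999 day 3 against day 1 they were -0.04 to 0.04 for ACACA, -0.07 to 0.13 for ELOVL6 and -0.06 to 0.10 for SCD, and for ACLY in UNC1999 against MAK683 on day 3 they were 0.00 to 0.05.

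DESeq2 lost 6 member calls: ACLY on MAK683 day 1 against untreated (0.13), FADS2 in UNC1999 against MAK683 over the mean (-0.60), and SCD5 in UNC1999 against MAK683 on day 1 (-1.59) and over the mean (-0.62), on MAK683 day 1 against untreated (2.53) and in the day 5 minus day 3 interaction (1.55). The cause of these changes was not tested. Replicate numbers did not pair the UNC1999 libraries: deviations of same-numbered libraries correlated at -0.042 to 0.024. With the replicate block the UNC1999 libraries gave 7168 genes called on days 5 and 6 against day 1 and 5103 on day 3 against day 1, and without it 7246 and 5207. ACSS2 and the untreated levels of SCD5, ELOVL2, ACACB and RXRA rest on few reads, which limits their sizes.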
